A study of Mus musculus with 6 samples.

Results

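Tubulin isotypes are the separate genes for alpha and beta tubulin, and 10 of them were followed here among the 54532 genes of a mouse RNA sequencing table: the alpha genes Tuba1a, Tuba1b, Tuba1c and Tuba4a and the beta genes Tubb2a, Tubb2b, Tubb3, Tubb4a, Tubb4b and Tubb5. Their rows were found by gene name and each name matched 1 row, but the family was picked with earlier results of these data known. The libraries came from N2a (Neuro2A) cells, a mouse neuroblastoma line that grows neurites when it differentiates and is labelled with the strain C57BL/6. The 3 control libraries (si-NC) carried a non-targeting siRNA, and the other 3 (si-circRtn4) carried an siRNA against circRtn4, a circular RNA made from exons of Rtn4. All 6 libraries are of 1 cell line. The labels give growth medium for both groups and no time or dose. The methods of the study say that N2a cells were moved to retinoic acid medium the day after siRNA transfection and collected later, without naming the sequencing libraries, so whether these cells had been differentiated is not settled by the labels. The question addressed was which tubulin mRNAs differed in level once circRtn4 was targeted.

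Microtubules are hollow polymers of alpha and beta tubulin dimers. They fill axons and dendrites, carry transport and form the mitotic spindle. The isotypes differ most in the acidic tail at the end of the protein, where enzymes remove or add tyrosine and attach glutamate chains. Tubb3, the class III beta tubulin, is the usual marker of neurons. Tubb2a, Tubb2b and Tuba1a are abundant in growing neurons, whereas Tuba1b, Tuba1c, Tubb4b and Tubb5 are made in most dividing cells. Cells also regulate tubulin mRNA by its translation: when free tubulin is plentiful, TTC5 recognises the first residues of the new chain on the ribosome and the mRNA is degraded.

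The beginning of each coding sequence is shown because TTC5 reads the residues it encodes. The sequences were read from GENCODE M21 transcripts (GRCm38), 24 bases from the start codon, with the first 4 codons in capitals.
Tuba1a start: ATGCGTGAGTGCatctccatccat
Tuba4a start: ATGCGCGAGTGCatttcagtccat
Tubb2a start: ATGCGCGAGATCgtgcacatccag
Tubb3 start: ATGAGGGAGATCgtgcacatccag
Tubb5 start: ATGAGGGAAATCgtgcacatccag
All 4 alpha members encode methionine, arginine, glutamate and cysteine there, and all 6 beta members encode methionine, arginine, glutamate and isoleucine.

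The last 30 coding bases of 5 members are shown because they encode the tail by which the isotypes differ most.
Tuba4a tail: tcctatgaggacgaggatgagggagaagag
Tubb2a tail: ttcgaggaggaggagggtgaagatgaggct
Tubb2b tail: ttcgaggaggaagagggcgaggatgaggct
Tubb3 tail: gacgaggaatcggaagcccaggggcccaag
Tubb5 tail: gatttcggagaggaggcagaagaggaggcc
Tuba1b and Tuba1c end in a tyrosine codon, whereas Tuba4a ends in a glutamate codon (gag). Tubb3 ends in a lysine codon (aag), and the other beta members end in an alanine codon.

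Several of these genes are nearly the same in sequence, which bears on how surely a read can be given to one of them. Over aligned coding bases, Tuba1a was 98.3% identical to Tuba1b and 97.1% to Tuba1c, and Tubb2a was 96.5% identical to Tubb2b. Tubb3 was 81.3% to 83.4% identical to the other beta members. In Tubb3, 0% of the 50-base windows of the transcript read for it also occurred in a transcript of another gene, and in Tubb5 the share was 0.12%. The share was 72.9% for Tuba1a, 73.8% for Tuba1b, 61.0% for Tuba1c, 49.6% for Tubb2a, 39.3% for Tubb2b and 50.9% for Tubb4b. Reads from these transcripts of Tubb3 and Tubb5 can thus be told from those of other genes over nearly all of the transcript. Reads of the Tuba1 genes, of Tubb2a with Tubb2b, and of Tubb4b with its pseudogene Tubb4b-ps1 may have been split or dropped in the authors' counting. By start and end coordinates, annotated genes also overlap some members. Gm49450 overlaps Tuba1a and Tuba1b on the same strand (mean 7.98 FPKM), and Gm20388 overlaps Tubb3 on the same strand and is listed at 0. Stk16 overlaps Tuba4a on the other strand (mean 5.57 FPKM). Whether their exons overlap was not examined.

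**Figure D1:**
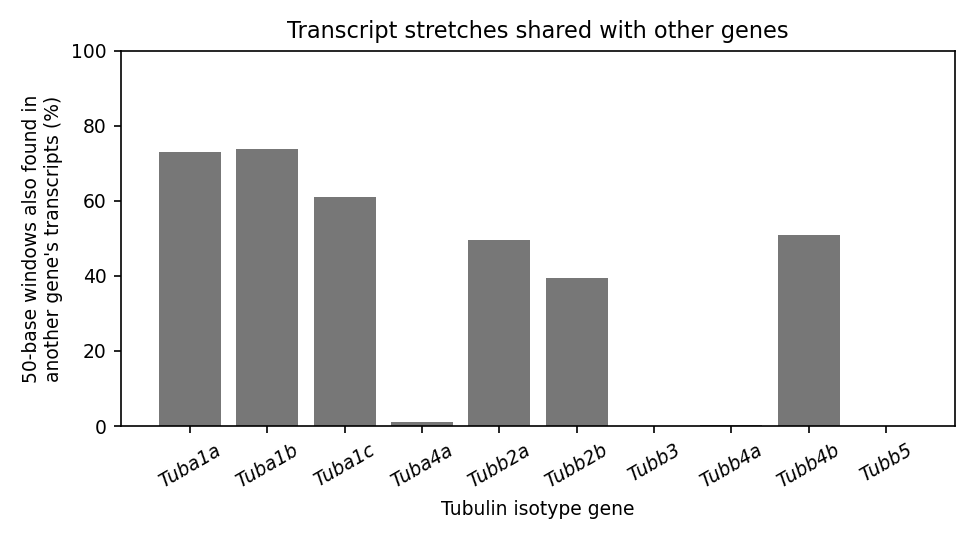
Bars give, for each tubulin gene, the percent of the 50-base windows in the GENCODE M21 transcript read for it that also occur in transcripts of other genes. Tubb3 stands at 0% and Tubb5 at 0.12%, while Tuba1b reaches 73.8%.

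Levels are given in FPKM, a read level scaled to library size and to the gene length listed with the data. For Tubb5 that length was 3327 bases, against 2649 in the GENCODE M21 transcript read here. For Tubb4b it was 2088 against 1598, and for Tuba4a 3701 against 2840, while for Tubb3 both were 1868. The order of genes, their sums and their shares thus depend on the length used. The 6 libraries held 13541198 to 15122063 reads, recovered from the FPKM values, and the 10 genes took 0.467% to 0.652% of them. Rtn4, the host gene of the targeted circle, had 61.0, 66.8 and 69.8 FPKM in si-NC and 50.1, 56.7 and 62.7 FPKM in si-circRtn4 (log2 difference -0.22, limma, Benjamini-Hochberg adjusted p = 0.216, and 0.0447 when replicates were paired). Paired on the TPM scale, limma gave Rtn4 an adjusted p of 0.196, and limma-voom with pairs gave 0.011. These reads do not separate the circle from the linear mRNA, so they do not check the knockdown. Of the markers looked at, 9 of 10 for sympathoadrenal neuroblasts and 5 of 6 for neurons reached a mean of 1 FPKM, with the neuronal marker Dcx near 0. Of the Schwann cell and oligodendrocyte markers 1 of 5 did so (Mbp, at least 2.88 FPKM in every library), and no marker of fibroblasts, astrocytes, immune, endothelial or epithelial cells did. The summed neuroblast markers moved with the groups, from 740 to 834 FPKM in si-NC and from 476 to 551 FPKM in si-circRtn4, and 5 of them were lower (limma, adjusted p under 0.05). The neuron markers summed to 163 to 206 FPKM in si-NC and 150 to 217 FPKM in si-circRtn4. Of them 1, Elavl4, was called higher (log2 difference 0.80, limma, adjusted p = 0.0252). Of the others tested, Elavl3 (0.14) and Stmn2 (0.12) went up and Gap43 (-0.32) and Ncam1 (-0.25) went down, none of them called. The 6 proliferation markers summed to 253 to 362 FPKM in si-NC and 261 to 323 FPKM in si-circRtn4, and none was called. Their part in the tubulin values was not tested.

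Tuba1a, Tubb5, Tubb3 and Tuba1b made up most of the tubulin mRNA. In si-NC, Tuba1a had 599 ± 116 FPKM, Tubb5 560 ± 64.0 FPKM, Tubb3 538 ± 85.0 FPKM and Tuba1b 498 ± 71.5 FPKM (SD, n = 3 libraries). The ranges of these neighbours overlapped, so their order was not larger than the spread. A second tier followed, with Tubb4b at 147 ± 17.1 FPKM, Tuba1c at 128 ± 18.2 FPKM, Tubb2a at 104 ± 11.5 FPKM and Tubb2b at 87.1 ± 6.90 FPKM. Neighbours in this tier overlapped too, but its highest library (159 FPKM, Tubb4b) lay below the lowest of the first tier (417 FPKM, Tuba1b). Tuba4a stood at 1.55 ± 0.471 FPKM, from 57 to 100 reads a library over both groups. Tubb4a, an isotype of mature neurons and oligodendrocytes, had 0 reads in every library, which allows up to 0.0865 to 0.0962 FPKM (3 reads a library, counting error only).

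**Figure D2:**
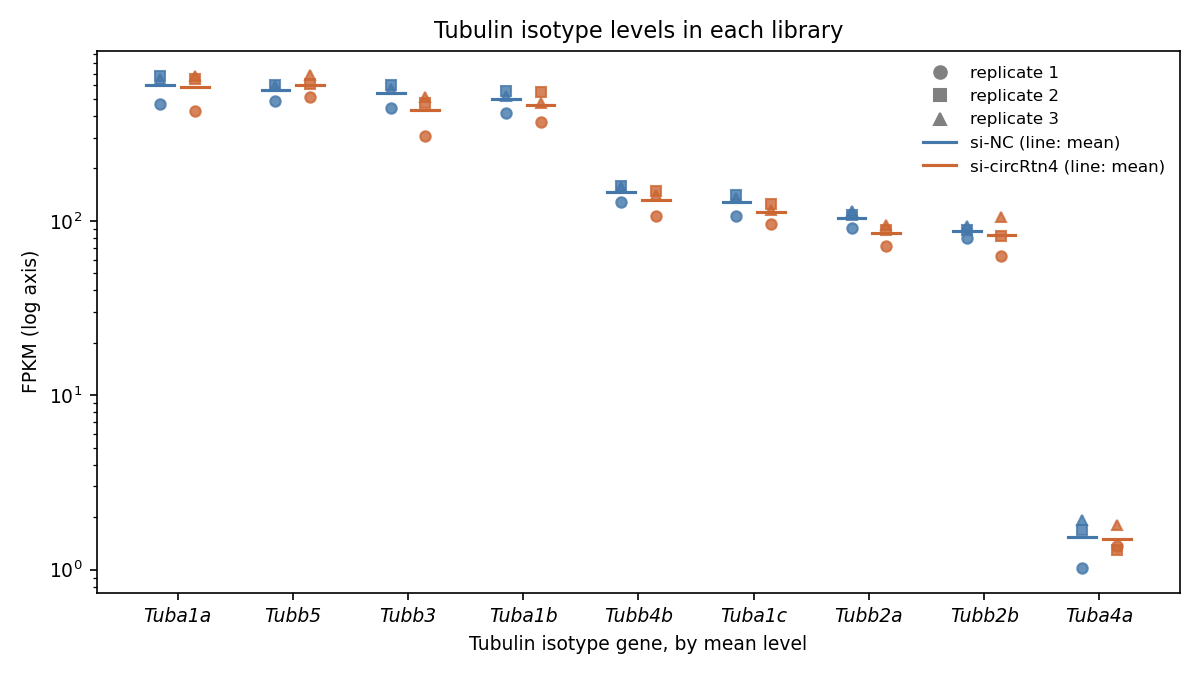
FPKM (log axis) of the 9 tubulin genes that had reads, in each si-NC and si-circRtn4 library. Symbols mark the replicate and lines the group mean. In each of the 8 more abundant genes the replicate 1 library is the lowest of its group.

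The comparison of si-circRtn4 with si-NC covered the 12749 genes that averaged 1 FPKM or more, and 9 of the 10 tubulin genes were among them. None of the 9 passed the test in either direction. Among all genes tested, 4.82% were called lower and 4.36% higher at a Benjamini-Hochberg adjusted p under 0.05 (limma on log2(FPKM + 1)). At an unadjusted p under 0.05, 0 of the 9 passed, against 25.9% of all genes. The groups of all 9 overlapped, whereas 15.5% of all genes lay wholly lower and 16.2% wholly higher in si-circRtn4. The log2 difference was negative for 8 of the 9 and positive for Tubb5, with a median of -0.11 beside 0.0020 over all genes. The sign of Tuba1a, Tuba4a and Tubb2b turned positive when FPKM was rescaled to TPM, which moved the median of all genes to 0.082. With the gene of highest mean FPKM left out of the TPM scaling, that median was 0.0208. The differences of Tuba1a, Tuba4a and Tubb2b then stayed negative, at -0.0249, -0.0067 and -0.0692. The sign of Tuba4a also turned positive with limma-voom, and that of Tubb5 turned negative after quantile normalization.

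Same-numbered libraries of both groups deviated together, so the numbers were also used as pairs. In each of the 8 more abundant members, replicate 1 was the lowest library of both groups. Within pairs, Tuba1b, Tuba1c, Tubb2a, Tubb3 and Tubb4b were lower in 3 of 3 pairs, as were 28.3% of all genes tested, and Tubb5 was higher in 3 of 3, as were 28.4%. With replicate number as a block, 4 of the 9 had an unadjusted p under 0.05, against 35.1% of all genes, and 1 was called lower after adjustment, against 9.75%. None was called higher, against 9.29%.

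Among the neuronal beta isotypes, Tubb3 (ENSMUSG00000062380, chr8:123411424-123422015, plus strand) had 442, 601 and 573 FPKM in si-NC and 308, 475 and 516 FPKM in si-circRtn4. Each si-circRtn4 library was below its partner, but those of replicates 2 and 3 were above the lowest si-NC library. The means were 538 ± 85.0 and 433 ± 110 FPKM (SD, n = 3), so si-circRtn4 stood at 80.4% of si-NC. On the log2(FPKM + 1) scale the difference was -0.34 (SE 0.207, 95% interval -0.82 to 0.15; limma, adjusted p = 0.361). The exact permutation test of 3 libraries against 3 gave p = 0.3, where 0.1 is the least it can give. With pairs the interval narrowed to -0.56 to -0.11 and the adjusted p was 0.0529, just outside the threshold (limma). Limma-voom with pairs on the recovered reads called it (adjusted p = 0.000322), in a fit that called 1720 of all 12749 genes lower. Limma with pairs on the TPM scale did not call it (adjusted p = 0.0883). Leaving out 1 library gave from -0.48 without si-circRtn4 replicate 3 to -0.11 without si-circRtn4 replicate 1. Its reads numbered 8186 to 16187 a library, so counting error is small beside the spread between replicates.

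Tubb2a, a beta isotype of growing neurons (ENSMUSG00000058672, chr13:34074274-34078007, minus strand), had 91.5, 108 and 114 FPKM in si-NC and 71.6, 89.2 and 94.2 FPKM in si-circRtn4. Only 1 si-circRtn4 library, replicate 3, was above the lowest si-NC library. The means were 104 ± 11.5 and 85.0 ± 11.9 FPKM, or 81.5%, and the log2 difference was -0.30 (SE 0.127, 95% interval -0.59 to 0.00026; limma, adjusted p = 0.193). The 3 pairs differed by -0.35, -0.27 and -0.27. With pairs it was the member called lower (interval -0.43 to -0.16; limma, adjusted p = 0.0208). On the TPM scale the paired call was lost (limma, adjusted p = 0.0542), and without si-circRtn4 replicate 1 the unpaired difference was -0.18. Its near copy Tubb2b (ENSMUSG00000045136, chr13:34126748-34130466, minus strand) had 79.6, 88.7 and 93.1 FPKM in si-NC and 62.5, 81.9 and 106 FPKM in si-circRtn4. Its libraries of si-circRtn4 spread from below to above all si-NC libraries, and its pairs went both ways (log2 difference -0.09, SE 0.176, limma, adjusted p = 0.795).

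**Figure D3:**
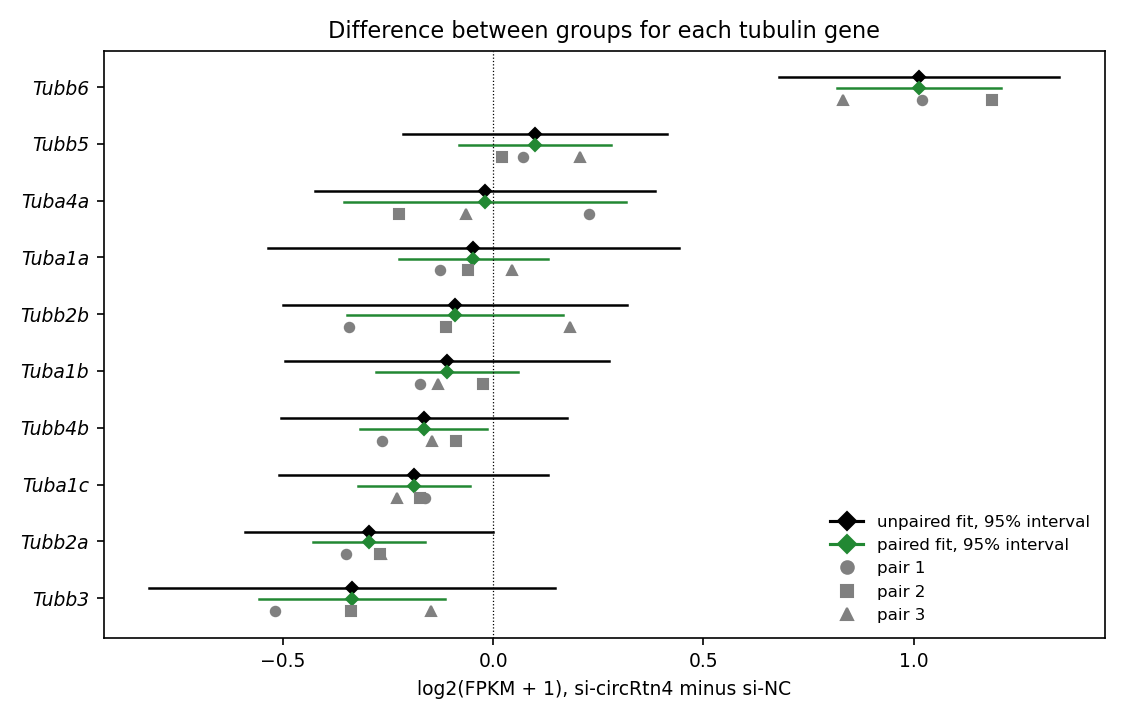
Difference between si-circRtn4 and si-NC in log2(FPKM + 1) for the 9 tubulin genes tested and for Tubb6. Diamonds with bars are the fitted difference and its 95% interval without pairs (black) and with pairs (green), and grey symbols are the 3 pairs. All black intervals except that of Tubb6 reach 0, and on the TPM scale the differences of Tuba1a, Tuba4a and Tubb2b are positive. With the gene of highest mean FPKM left out of the TPM scaling, those differences are negative.

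Among the beta isotypes of dividing cells, Tubb5 (ENSMUSG00000001525, chr17:35833921-35838306, minus strand) had 486, 601 and 592 FPKM in si-NC and 511, 610 and 683 FPKM in si-circRtn4. The groups overlapped widely, and each si-circRtn4 library was above its partner. The means were 560 ± 64.0 and 601 ± 86.5 FPKM, or 107%, with a log2 difference of 0.10 (SE 0.135, 95% interval -0.21 to 0.41; limma, adjusted p = 0.700). It was 0.0014 without si-NC replicate 1, 0.0029 without si-circRtn4 replicate 3, 0.21 without si-circRtn4 replicate 1 and 0.19 on the TPM scale. Tubb4b (ENSMUSG00000036752, chr2:25222160-25224702, minus strand) had 128, 159 and 155 FPKM in si-NC and 106, 149 and 141 FPKM in si-circRtn4. It was lower in each pair, and the difference of -0.17 was not called without pairs (limma, adjusted p = 0.531) or with them (adjusted p = 0.117). It was -0.02 without si-circRtn4 replicate 1, -0.27 without si-NC replicate 1 and -0.07 on the TPM scale.

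The alpha isotypes lie in a cluster on chromosome 15, except Tuba4a. Tuba1a (ENSMUSG00000072235, chr15:98949837-98953703, minus strand), the main alpha isotype of young neurons, had 467, 679 and 652 FPKM in si-NC and 428, 651 and 673 FPKM in si-circRtn4. The spread within each group was far larger than the gap between the means, 599 ± 116 and 584 ± 136 FPKM. Its log2 difference of -0.05 had an interval from -0.54 to 0.44 without pairs (limma, adjusted p = 0.920) and from -0.22 to 0.13 with them.

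Tuba1b (ENSMUSG00000023004, chr15:98931425-98934565, minus strand) had 417, 555 and 521 FPKM in si-NC and 370, 545 and 476 FPKM in si-circRtn4, a log2 difference of -0.11 (SE 0.165; limma, adjusted p = 0.733). Tuba1c (ENSMUSG00000043091, chr15:99029891-99038110, plus strand) had 107, 141 and 135 FPKM in si-NC and 95.5, 125 and 115 FPKM in si-circRtn4. It was lower in each pair, by -0.16, -0.17 and -0.23 on the log2 scale. Its log2 difference of -0.19 (SE 0.137) was not called by limma without pairs (adjusted p = 0.441) or with them (0.0624). It was called by limma-voom with pairs (0.0380), a fit that called 1720 of all 12749 genes lower. On the TPM scale it was -0.10 (limma with pairs, adjusted p = 0.303), and leaving out 1 library gave from -0.31 without si-NC replicate 1 to -0.08 without si-circRtn4 replicate 1. Tuba4a (ENSMUSG00000026202, chr1:75214228-75219865, minus strand) had 1.02, 1.69 and 1.93 FPKM in si-NC and 1.37, 1.30 and 1.80 FPKM in si-circRtn4. The groups overlapped, and its 3 pairs went both ways (log2 difference -0.02, 95% interval -0.42 to 0.38; limma, adjusted p = 0.961).

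Summed FPKM gave the size of each tubulin pool. The alpha members summed to 992, 1376 and 1311 FPKM in si-NC and 894, 1322 and 1266 FPKM in si-circRtn4, means of 1226 ± 206 and 1161 ± 233 FPKM. The beta members summed to 1226, 1557 and 1527 FPKM in si-NC and 1059, 1405 and 1540 FPKM in si-circRtn4, means of 1437 ± 183 and 1335 ± 248 FPKM. Both sums overlapped between the groups, with gaps between the means smaller than either SD. Within pairs, si-circRtn4 stood at 90.1%, 96.1% and 96.6% of si-NC for the alpha sum and at 86.4%, 90.3% and 101% for the beta sum. The log2 ratio of the means, -0.08 for alpha and -0.11 for beta, turned positive without si-circRtn4 replicate 1 (0.08 and 0.04), and that of alpha also without si-NC replicate 2 (0.01) and on the TPM scale (0.0080). With the gene of highest mean FPKM left out of the TPM scaling, that of alpha was -0.0624. The ratio of the alpha sum to the beta sum was 0.851 ± 0.0381 in si-NC and 0.869 ± 0.0632 in si-circRtn4.

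Tubb3 and Tubb2a took smaller shares of the members' beta sum, and Tubb5 a larger share, in every si-circRtn4 library than in any si-NC library. Tubb6 is not in that sum. Shares within a library do not depend on how the libraries were scaled. Tubb3 made up 36.0%, 38.6% and 37.5% of the beta sum in si-NC and 29.1%, 33.8% and 33.5% in si-circRtn4. Tubb5 made up 39.6%, 38.6% and 38.8% in si-NC and 48.2%, 43.4% and 44.4% in si-circRtn4. For both genes the groups did not overlap. Tubb2a also did not overlap, at 7.46%, 6.92% and 7.44% in si-NC and 6.76%, 6.35% and 6.12% in si-circRtn4, while Tubb2b and Tubb4b did. In FPKM, 15.5% of all genes tested lay wholly lower and 16.2% wholly higher in si-circRtn4. No such background was made for shares. The ratio of Tubb3 to Tubb5 was 0.909, 1.001 and 0.967 in si-NC and 0.603, 0.779 and 0.756 in si-circRtn4, with means of 0.959 ± 0.0464 and 0.713 ± 0.0954. All shares of the alpha sum overlapped, with Tuba1a at 48.7 ± 1.48% and 50.1 ± 2.78%. The shares of 1 pool add up to a fixed total and so move against each other, and no test was made of them. The ratio of Tubb3 to Tubb5 was picked after the values had been seen.

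**Figure D4:**
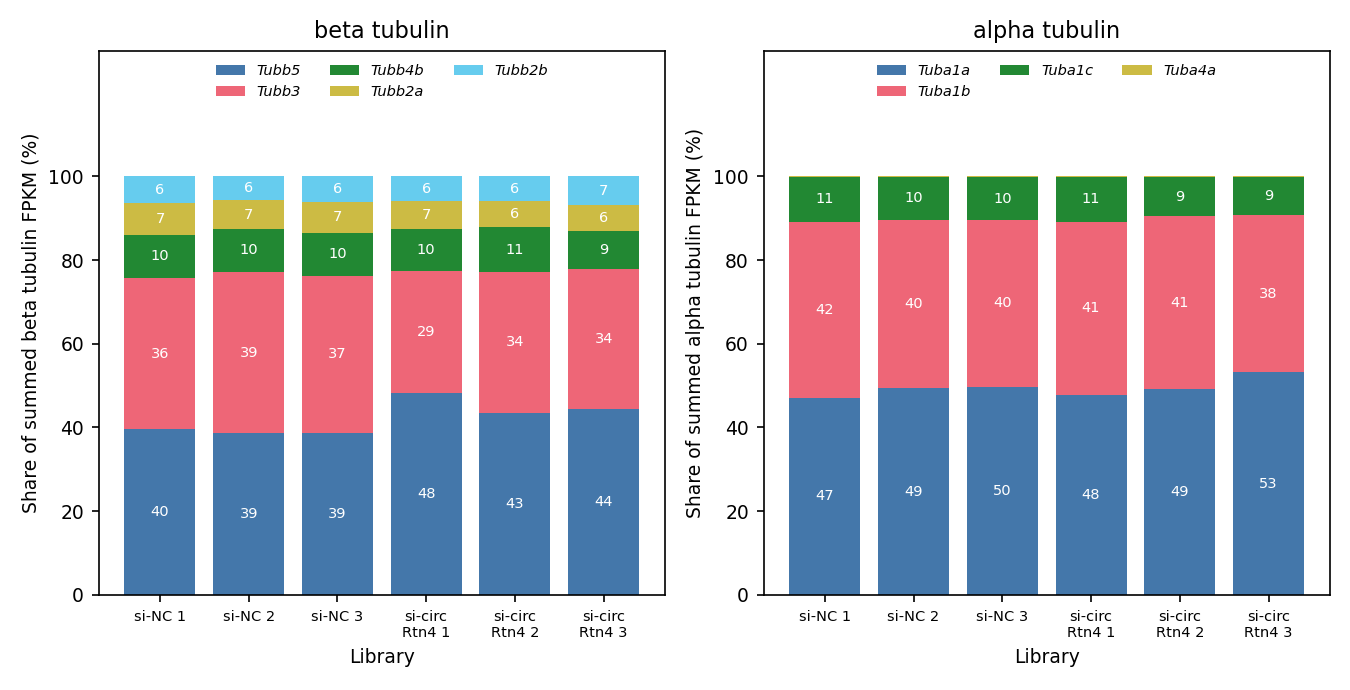
Stacked bars give the percent of the members' summed beta (left) and alpha (right) tubulin FPKM from each gene, in each of the 6 libraries. Tubb6 and Tuba8 are not included. Tubb3 holds 36.0% or more in the si-NC libraries and 33.8% or less in the si-circRtn4 libraries, and Tubb5 at most 39.6% and at least 43.4%. The alpha shares overlap.

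The 3 genes outside the family whose log2(FPKM + 1) followed Tubb3 most closely over the 6 libraries, among 5637 genes averaging 10 FPKM or more, were Ptma (Pearson r = 0.994), Vps28 (r = 0.990) and Smarca4 (r = 0.987). For Tuba1a they were Cdc16 (r = 0.992), Sar1a (r = 0.989) and Prmt1 (r = 0.987). Among the members, Tubb3 went most with Tubb4b (r = 0.964) and Tubb2a (r = 0.958), and Tubb2a went least with Tubb5 (r = 0.450). The points share the same libraries and scaling, and the low level of both replicate 1 libraries enters each value.

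Of the other tubulin genes, 6 of 10 were tested. Of these, 2 were called higher and none lower, against 4.36% and 4.82% of all genes tested. Tubb6, a beta isotype that is scarce in neurons and abundant in muscle and other non-neural cells (ENSMUSG00000001473), had 29.3, 36.6 and 36.6 FPKM in si-NC and 60.4, 84.6 and 65.8 FPKM in si-circRtn4. Every si-circRtn4 library was above every si-NC library. The means were 34.1 ± 4.23 and 70.3 ± 12.7 FPKM, a log2 difference of 1.01 (SE 0.143, 95% interval 0.68 to 1.35; limma, adjusted p = 0.00797), and it was called in all 17 alternatives. Tuba8, an alpha isotype of muscle and testis (ENSMUSG00000030137), had 5.30, 4.93 and 4.07 FPKM in si-NC and 6.68, 7.01 and 6.87 FPKM in si-circRtn4, a log2 difference of 0.45 (SE 0.0970; limma, adjusted p = 0.0305). The tubulins of the centrosome and basal body did not pass: Tubg1, the gamma tubulin that nucleates microtubules, had 65.2 ± 4.06 and 67.0 ± 5.88 FPKM, Tubg2 11.8 ± 1.17 and 10.2 ± 1.64 FPKM, and Tubd1 and Tube1 about 2 FPKM each. Tuba3a, Tuba3b, Tubal3 and Tubb1 were at or near 0.

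The genes that fold tubulin, the CCT chaperonin, prefoldin and the tubulin cofactors, gave 22 tested genes of which none was called by limma without pairs. Their median log2 difference was 0.04. With pairs 2 of the 22 were higher, a share near the 9.29% of all genes; these were the prefoldin subunits Pfdn1 (29.1 ± 1.07 and 36.9 ± 3.74 FPKM, adjusted p = 0.0210) and Pfdn4 (14.6 ± 0.819 and 18.7 ± 1.97 FPKM, adjusted p = 0.0188), named after their values had been seen. The 9 genes that sever microtubules (katanins, spastin and fidgetins) had 0 calls with or without pairs, and a median of 0.12. Ttc5, whose product reads the residues shown above, had 9.65 ± 1.18 and 8.15 ± 0.379 FPKM (log2 difference -0.21; limma, adjusted p = 0.206).

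The genes that modify tubulin gave 16 tested of 26, with 2 higher, 0 lower and a median of -0.01. Of all genes tested, 4.36% were called higher and 4.82% lower. With pairs, 3 of the 16 were higher and 1 lower, against 9.29% and 9.75% of all genes. Vash2, a vasohibin that removes the terminal tyrosine of alpha tubulin, had 17.8, 16.8 and 16.3 FPKM in si-NC and 21.1, 22.0 and 22.2 FPKM in si-circRtn4 (log2 difference 0.35, SE 0.0688; limma, adjusted p = 0.0237). Sirt2, a deacetylase of alpha tubulin, had 8.78, 7.80 and 7.71 FPKM in si-NC and 11.8, 12.1 and 9.82 FPKM in si-circRtn4 (log2 difference 0.43, SE 0.0977; limma, adjusted p = 0.0370). Svbp, the partner that vasohibins need, had 5.07 ± 1.05 and 8.22 ± 1.61 FPKM, and was called higher by limma with pairs (adjusted p = 0.00502) and not without them (0.0597). Ttll3, a glycylase of tubulin, had 5.92 ± 1.74 and 4.28 ± 0.624 FPKM and was called lower by limma with pairs (adjusted p = 0.0456) and not without them (0.251). It was also called by limma-voom with pairs (adjusted p = 0.0010) and not by limma with pairs on the TPM scale (0.0775). Svbp and Ttll3 were named after their values had been seen.

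The genes that nucleate microtubules, gamma tubulin ring and augmin subunits among them, gave 17 tested, 1 lower and 0 higher, with a median of -0.03. Over all genes 4.82% were lower and 4.36% higher, so 1 of 17 is near the share of any genes. With pairs 2 of the 17 were lower, against 9.75% of all genes. Cdk5rap2, which tethers gamma tubulin rings at the centrosome, had 9.94, 10.6 and 11.6 FPKM in si-NC and 7.61, 7.73 and 8.93 FPKM in si-circRtn4 (log2 difference -0.37, SE 0.0900; limma, adjusted p = 0.0461). Mzt2, a small gamma tubulin ring subunit named after its values had been seen, had 18.4 ± 1.86 and 14.5 ± 0.422 FPKM and was called lower by limma with pairs (adjusted p = 0.0321) and not without them (0.0612). Limma-voom with pairs also called Mzt2 (adjusted p = 0.0186), and limma with pairs on the TPM scale did not (0.0633). Leaving out any 1 of 5 libraries ended the calls of Tuba8, Vash2 and Cdk5rap2, and leaving out any 1 of 4 ended that of Sirt2, with adjusted p-values up to 0.137 (limma). For Tuba8 and Vash2 these were all libraries but si-NC replicate 1, for Cdk5rap2 all but si-circRtn4 replicate 3, and for Sirt2 all but si-NC replicate 1 and si-circRtn4 replicate 3. All 4 calls were also lost without replicate 1 of both groups, those of Tuba8, Sirt2 and Cdk5rap2 with no filter on low values, and that of Cdk5rap2 on the TPM scale and without a trend in limma. Calls over all genes fell too, from 615 lower and 556 higher. Leaving out 1 library gave from 217 lower and 163 higher (si-NC replicate 2) to 419 lower and 407 higher (si-NC replicate 1). Without replicate 1 of both groups 182 were lower and 139 higher, and with no filter 261 and 210.

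**Figure D5:**
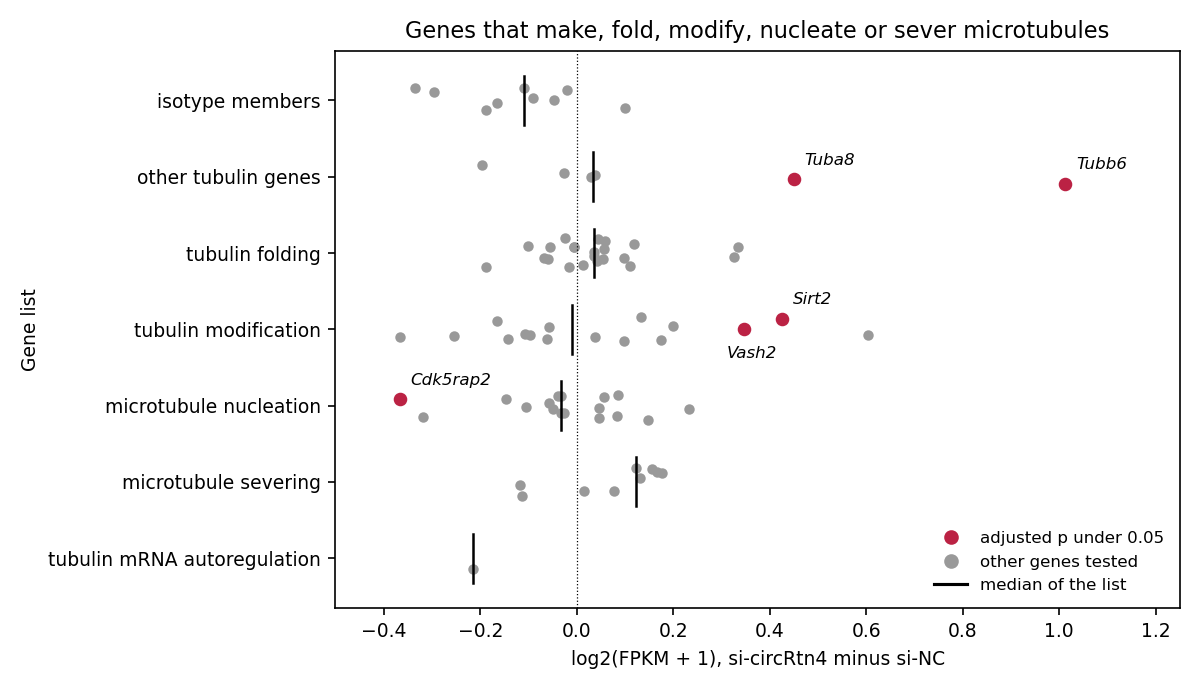
Difference between si-circRtn4 and si-NC in log2(FPKM + 1) for each gene tested in the tubulin lists, with a vertical line at the median of each list. Red points with names passed limma at an adjusted p under 0.05: Tuba8, Tubb6, Vash2 and Sirt2 higher, and Cdk5rap2 lower. The 9 isotype members are all grey, and on the TPM scale Tuba1a, Tuba4a and Tubb2b among them turn positive. With the gene of highest mean FPKM left out of the TPM scaling, they stay negative.

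The study examined circRtn4 together with miR-24-3p, so the 3′ UTRs of the members were searched for its seed site. The mature miRNA is shown with its seed, bases 2 to 8, in capitals (RefSeq), and the siRNA as listed in the table of siRNAs.
miR-24-3p: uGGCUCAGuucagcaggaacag
si-circRtn4: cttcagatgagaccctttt
Of the 10 longest 3′ UTRs, only that of Tubb5 held the 7-base site CTGAGCC, on the transcript strand, against 19.6% of the 10694 tested genes with a 3′ UTR. It lies at base 733 of 1061, at chr17:35834243-35834249 on the minus strand of GRCm38, in the context tcccagctgtcCTGAGCCaaatctgccatt with the site in capitals. The 7-base site ACCCTTT for the seed of the siRNA guide, assumed to be the strand opposite to the one listed, was in none of the 10, against 12.5% of those genes. The 3′ UTRs of the members ran from 101 bases (Tuba1c) to 1394 bases (Tuba4a), and those of Tuba1a, Tuba1b, Tuba1c, Tubb2a and Tubb4b were at most 197 bases. A short 3′ UTR has less room for a site, and the shares over all genes were not matched for length. A match is a stretch of letters and shows no binding.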

How the data were processed

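RNA of 6 N2a libraries was sequenced, and groups and replicate numbers were taken from the labels. Nothing says whether the replicates were separate cultures, so p-values measure the spread between these libraries, which may be technical. The authors deposited FPKM per gene, normalised for the listed gene length and library size. The submitters' processing notes list Bowtie 0.12.2 and the builds mm8 and mm9 without their roles, while 98.1% of the 54532 genes listed have GENCODE M21 (GRCm38) coordinates. The counting tool and its use of strand are not given in the sources used here. A further 6 value columns belong to other samples and were not used.

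FPKM times gene length gave whole multiples of 1 read for 100% of values within 0.01. Log2(FPKM + 1) of the 12749 genes averaging 1 FPKM or more was tested with limma 3.58.1 (R 4.3.3; lmFit, eBayes with trend), two-sided, with Benjamini-Hochberg adjustment over all of them and a threshold of 0.05. Differences understate the change of low genes. Same-numbered libraries deviated together (r = 0.331, 0.190 and 0.226 across genes, against at most 0.00913 for other numbers), so replicate number also served as a block. Deviations were taken from group means, so a high value for some pairings lowers the others. No label says that the numbers are pairs, so the paired fits rest on an assumption. limma-voom was run on the recovered reads. Alternatives were another pseudocount (0.1), no filter, TPM, quantile normalization, no trend and leaving out libraries. TPM was also scaled with the gene of highest mean FPKM left out of the total. The fits were tested on simulated data. Python 3.11.15 did the rest.

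Named were the 10 members, Rtn4, the called genes of each list (at most 4), the 3 genes most like Tubb3 and like Tuba1a, and tubulin pseudogenes averaging 1 FPKM or more, unless said otherwise. The members and the lists of other genes were chosen with earlier results of these data known. A marker gene and a sequence are not reported here.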

Additional observations from a re-analysis of the deposited data

How the results depend on the processing

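Tubb6 kept its direction and its call in all 17 alternatives (adjusted p at most 0.0408), and no member was called higher in any. The replicate block, used because same-numbered libraries deviated together, made 1 member lower (Tubb2a). The replicate block with limma-voom made 3 lower (Tuba1c, Tubb2a and Tubb3, log2 differences -0.17, -0.28 and -0.31), and the replicate block with TPM made 0. Of all 12749 genes, the block with limma-voom called 1720 lower and 2191 higher, and the block with TPM called 764 lower and 1900 higher. The log2 difference turned positive on the TPM scale, with or without the replicate block, for Tuba1a (0.046), Tuba4a (0.0367) and Tubb2b (0.0010), with limma-voom for Tuba4a (0.0112), and without replicate 1 of both groups for Tubb2b (0.0347). With the gene of highest mean FPKM left out of the TPM scaling, it stayed negative for Tuba1a (-0.0249), Tuba4a (-0.0067) and Tubb2b (-0.0692). It turned negative after quantile normalization for Tubb5 (-0.0178). Leaving out 1 library gave -0.22 to 0.16 for Tuba1a, -0.24 to 0.0437 for Tuba1b, -0.18 to 0.0908 for Tuba4a, -0.28 to 0.10 for Tubb2b, -0.21 to 0.08 for the alpha sum and -0.22 to 0.04 for the beta sum. None of the members' sign changes passed the test, and the cause was not tested. The alternatives with TPM or limma-voom in a paired fit and without replicate 1 of both groups were chosen after seeing the data. With 3 libraries a group, the intervals leave room for a change of Tubb3 down to -0.82 or up to 0.15 without pairs. Tubb4a had no reads, so depth sets its limit.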

Other observations

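Of 6 tubulin pseudogenes in the table, 1 reached a mean of 1 FPKM. Tubb4b-ps1, a processed copy of Tubb4b on chromosome 5, had 3.03, 3.27 and 3.42 FPKM in si-NC and 1.68, 1.97 and 2.47 FPKM in si-circRtn4, from 32 to 64 reads a library. Its groups did not overlap (log2 difference -0.49; limma, adjusted p = 0.0487), and the call was lost in 11 of 17 alternatives, with adjusted p-values up to 0.153. Tubb4b shares 43.6% of its 50-base windows with this copy, so the reads of either may belong to the other. Tubb4b itself differed by -0.17 (limma, adjusted p = 0.531).

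Outside the lists, 7 tested genes carry the word tubulin in their description. Of these 1 was lower and 0 higher, against 4.82% and 4.36% of all genes tested. That gene, chosen after its values had been seen, is Tppp3, a member of the TPPP family that promotes tubulin polymerization. It had 155, 121 and 115 FPKM in si-NC and 82.0, 76.1 and 90.8 FPKM in si-circRtn4, with every si-circRtn4 library below every si-NC library (log2 difference -0.63; limma, adjusted p = 0.0241). The call was lost in 5 of 17 alternatives, with adjusted p-values up to 0.0879. These were the fit with no filter on low values and the fits without si-NC replicate 2, si-circRtn4 replicate 1, si-circRtn4 replicate 2, or replicate 1 of both groups. Each of these fits also called fewer genes over the whole set than the main fit.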
